A study of Mus musculus with 8 samples.

Results

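The Wnt ligands, their Frizzled receptors and Lrp co-receptors, and the secreted inhibitors that act on them were examined in the back skin of mice shortly before birth, at embryonic day 18.5. Members were genes with 1 symbol in the platform annotation that begins with Wnt, Fzd, Sfrp or Dkk followed by a number, with Lrp5, Lrp6, Wif1, Frzb and Kremen1, which gave 43 of the 18193 genes tested. Each gene was read at its brightest probe set, the one with the highest mean over all arrays, and 84 probe sets belonged to the members in all. By role these were 19 ligands, 10 Frizzled receptors, 2 co-receptors, 11 secreted inhibitors or Kremen proteins, and Fzd10os, a transcript named for its place opposite Fzd10 that shares the letters of the family but encodes no Frizzled. Kremen2 was not analysed here.

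The skin compared came from GR-/- embryos (GR-null, 4 arrays, label numbers 5, 17, 25 and 26), which lack the glucocorticoid receptor encoded by Nr3c1. It was set against skin of GR+/+ littermates (wild-type, 4 arrays, label numbers 4, 6, 28 and 29). All embryos carried the strain label B6D2/F1 and were delivered by caesarean section. No hormone or drug treatment is named in the labels, and the labels do not state how the null allele was made, which litter an embryo came from or whether tissue was pooled. Nothing says that the arrays of a group came from separate embryos, so p-values cover only the spread among arrays, part of which may be technical.

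Wnt proteins are lipid-modified by Porcn and carried to the cell surface by Wls. At the receiving cell they bind a Frizzled receptor together with Lrp5 or Lrp6, which spares beta-catenin from destruction so that it can act with Tcf/Lef factors on genes such as Axin2. Sfrp proteins, Frzb and Wif1 bind Wnts outside the cell, whereas Dkk proteins bind the Lrp co-receptors, with Kremen as a partner. In mouse skin this pathway starts hair follicle formation, and forced Dkk1 in the epidermis blocks it.

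The promoters of 4 members are shown for the member with an adjusted p below 0.05 (Dkk1), for the ligands with the largest difference in each direction (Wnt3 and Wnt2) and for a second Dkk gene that holds a receptor half-site (Dkk2). Each run is the 250 bases before the annotated start, 5′ to 3′ in the direction of the gene, from RefSeq on GRCm38.p6. They lie at chr19:30549497-30549746, minus strand, at chr11:103773925-103774174, plus strand, at chr6:18030446-18030695, minus strand, and at chr3:132085042-132085291, plus strand. Capitals mark AGAACA, the half-site of the glucocorticoid receptor, or CTTTGAT, a Tcf/Lef core, read on either strand.
Dkk1: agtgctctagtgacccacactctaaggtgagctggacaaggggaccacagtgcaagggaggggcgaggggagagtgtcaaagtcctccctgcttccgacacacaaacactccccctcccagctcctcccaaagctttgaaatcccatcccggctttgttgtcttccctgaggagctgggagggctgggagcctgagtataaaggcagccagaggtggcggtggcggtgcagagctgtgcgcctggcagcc
Wnt3: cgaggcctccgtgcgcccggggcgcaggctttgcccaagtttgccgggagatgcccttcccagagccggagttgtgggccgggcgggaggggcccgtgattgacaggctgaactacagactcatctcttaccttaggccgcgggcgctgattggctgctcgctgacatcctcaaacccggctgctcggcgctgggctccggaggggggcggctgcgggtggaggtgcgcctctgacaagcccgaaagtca
Wnt2: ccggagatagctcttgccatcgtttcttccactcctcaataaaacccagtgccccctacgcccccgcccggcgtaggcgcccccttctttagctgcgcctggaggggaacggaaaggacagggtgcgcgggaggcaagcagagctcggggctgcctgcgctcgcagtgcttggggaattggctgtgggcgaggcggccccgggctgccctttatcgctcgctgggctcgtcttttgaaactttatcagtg
Dkk2: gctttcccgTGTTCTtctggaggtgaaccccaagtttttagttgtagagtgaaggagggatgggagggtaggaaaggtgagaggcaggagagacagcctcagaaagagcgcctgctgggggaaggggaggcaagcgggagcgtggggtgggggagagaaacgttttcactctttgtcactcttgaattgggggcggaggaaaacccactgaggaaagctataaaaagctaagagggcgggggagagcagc
The half-site for which Dkk2 was chosen lies on the opposite strand and begins at position -241 from the start, and the other runs hold no motif. G and C made up 60.8% of the Dkk1 run, 68.0% of the Wnt3 run, 63.6% of the Wnt2 run and 55.6% of the Dkk2 run, and the runs held 6, 22, 20 and 7 CG pairs in that order. RefSeq promoters of 300 bases, 250 before and 50 after the start, were found for 27 members, 30 promoters in all. AGAACA was in 4 of the 30 (13.3%, in Dkk2, Fzd4, Wnt5b and Wnt8b), against 19.0% of all 32851 promoters. CTTTGAT was in 2 (6.67%, in Wnt11 and Wnt5b), against 3.73% of all. The full palindrome (AGAACA, any 3 bases, TGTTCT), which contains the half-site, was in 0 member promoters and in 0.00913% of all. These are letter matches, not shown binding sites.

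Several measures of the arrays as a whole differed with genotype. Nr3c1 was lower in GR-null skin at 3 of its 6 probe sets (adjusted p below 0.05 by limma, the threshold used throughout), with log2 fold changes of -0.84 to -2.70 there, and which exons each reads is not stated. Markers of keratinocytes (mean of 8 genes, 13.16 ± 0.17 log2 in GR-null and 13.12 ± 0.17 in wild-type, SD, n = 4 each) and of dermal fibroblasts (8 genes, 13.31 ± 0.09 in GR-null and 13.30 ± 0.10 in wild-type) were bright in both groups. Of the keratinocyte markers 1 was past the threshold and higher and 1 lower, and of the fibroblast markers 0 were past it. The mean of 14 skeletal muscle markers was 11.89 to 12.55 in GR-null and 12.64 to 12.79 in wild-type arrays. Of the 14, 4 were past the threshold and lower, beside 1.56% of all genes. The mean of 6 melanocyte markers was 8.63 to 9.29 in GR-null and 8.01 to 8.39 in wild-type arrays. Of the 6, 2 were past the threshold and higher, beside 1.40% of all genes. The array also carries control probe sets at the 3′ and 5′ ends of beta-actin and Gapdh, whose gap widens when labelled RNA is shorter. That gap was 0.52 to 0.88 log2 in GR-null and 0.91 to 1.48 in wild-type arrays for beta-actin, and -0.16 to 0.07 in GR-null and 0.20 to 0.55 in wild-type arrays for Gapdh, so neither control overlapped between genotypes. In such bulk tissue fewer cells of a type and less RNA per cell cannot be told apart. The muscle, melanocyte and gap measures each separated the genotypes. A fit with any of them as a covariate therefore cannot tell it from genotype, and a call lost there is not refuted.

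The ligand with the brightest probe set in embryonic skin was Wnt4, made by the epidermis, followed by Wnt7b, Wnt5a, Wnt6 and Wnt10a. A log2 signal depends on how well its probes bind as well as on the transcript, so the order is one of signals and not of transcript amounts. Wnt4 read 9.77, 10.04, 9.60 and 9.93 log2 in GR-null 5, 17, 25 and 26, against 9.73, 10.26, 9.87 and 10.14 in wild-type 4, 6, 28 and 29. It came first in either genotype alone and also with probe sets averaged per gene, an order in which Wnt10a was second and Wnt5a sixth. Wnt7b, a ligand of the epidermis and hair follicle, read 9.42, 8.75, 9.29 and 9.91 in GR-null arrays, against 8.62, 9.15, 8.94 and 8.93 in wild-type arrays in the same order. Wnt5a, which acts largely through non-canonical signalling, read 8.60, 8.73, 8.38 and 8.39 in GR-null arrays, against 8.83, 8.28, 8.42 and 8.62 in wild-type arrays. The 2 groups of arrays overlapped for each of these ligands.

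Wnt6 read 8.27, 8.35, 8.54 and 8.59 log2 in GR-null arrays, against 7.87, 8.16, 8.21 and 8.44 in wild-type arrays. Wnt10a, which in humans is mutated in ectodermal dysplasias of teeth, hair and nails, read 8.09, 8.17, 8.25 and 8.38 in GR-null arrays, against 8.01, 7.82, 8.24 and 8.37 in wild-type arrays. Wnt11, another non-canonical ligand, was sixth with 7.54, 7.46, 7.40 and 7.51 in GR-null arrays, against 7.40, 7.52, 7.15 and 7.49 in wild-type arrays. All 3 overlapped between the genotypes. Wnt4 and Wnt7b stood 0.79 log2 apart and Wnt7b and Wnt5a 0.60 apart, more than the larger SD over arrays of each pair. The steps from Wnt5a to Wnt6 (0.23) and from Wnt6 to Wnt10a (0.14) did not exceed it, and neither did any single step between neighbours from Wnt11 through Wnt7a, Wnt2 and Wnt10b to Wnt3a. In all, 7 of the 18 steps in the order exceeded the larger SD.

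Whether the dim ligands were transcribed at all could not be read directly, so 24 genes of organs such as retina, testis, kidney, liver and brain were set beside them. Their mean signals ran from 3.35 to 7.27 log2 with a median of 4.84. Of the 19 ligands, 7 were above the highest of them, from Wnt4 down to Wnt7a at 7.38 ± 0.08 (SD, n = 8). Another 7 lay inside the upper part of that range (Wnt2, Wnt10b, Wnt3a, Wnt9a, Wnt16, Wnt9b and Wnt5b). The remaining 5 (Wnt3, Wnt8b, Wnt2b, Wnt1 and Wnt8a) were below the median, with means of 4.83, 4.81, 4.66, 4.55 and 4.29. The plot of ligand signals shows this order.

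**Figure D1:**
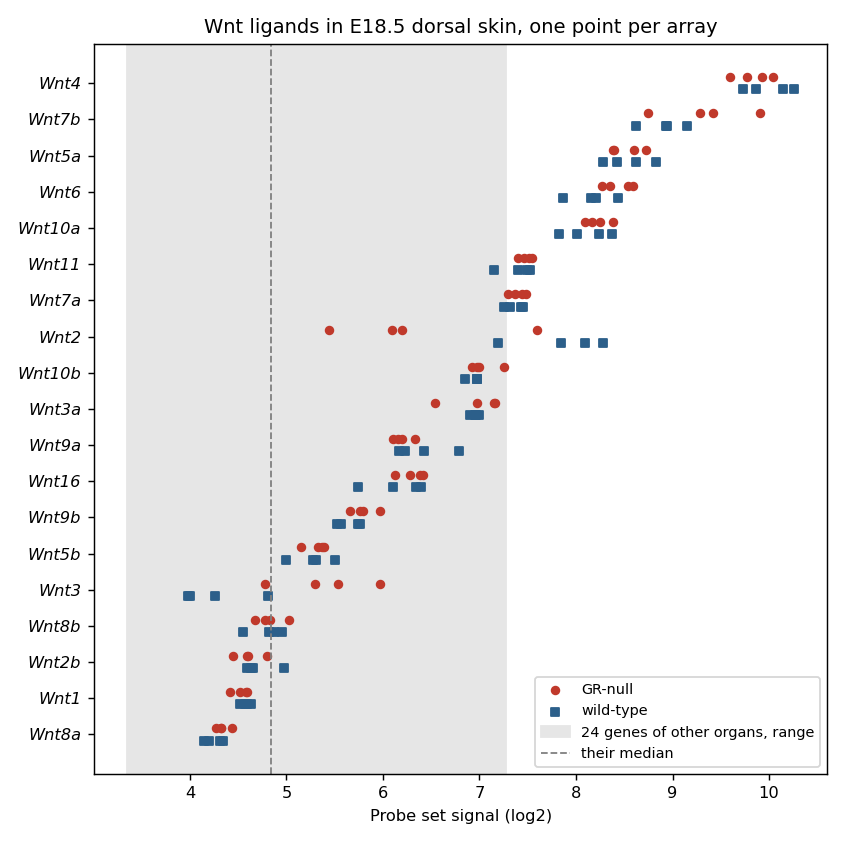
Log2 probe set signal of the 19 Wnt ligands (rows, brightest at the top), with 4 GR-null arrays as circles above 4 wild-type arrays as squares. The grey band spans the mean signals of 24 genes of other organs, 3.35 to 7.27, and the dashed line marks their median of 4.84. The groups overlap in every row, and Wnt2 and Wnt3 have the widest spread.

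Between genotypes, Dkk1, the Lrp-binding Wnt antagonist, was the 1 member past the threshold and higher in GR-null skin. No member was past it and lower. By limma 1 of 43 members was past an adjusted p of 0.05 over all 18193 genes (2.33%), while 2.96% of all genes were, 1.40% higher and 1.56% lower. At an unadjusted p below 0.05 there were 8 higher and 3 lower members, 25.6% of the 43, against 21.6% of all genes (10.5% higher and 11.1% lower). The groups did not overlap for 5 members (11.6%), 4 higher and 1 lower, while this held for 13.0% of all genes, 6.69% higher and 6.30% lower. Taken over both directions these shares are near those of all genes. By direction the members leaned upward in the unadjusted and non-overlapping counts, where all genes were nearly even. The median log2 fold change (GR-null minus wild-type) was 0.08 over the members and 0.00 over all genes. Above 0 were 29 members (67.4%) and below it 14, while 48.7% of all genes were above 0. At the brightest probe set the 95% interval excluded a 2-fold change in either direction for 40 of the 43, and for 17252 of all 18193 genes. The other 3 members were Wnt2, Wnt3 and Fzd5. Dimmer probe sets of some of the 40 had larger differences in signal, such as 1.33 log2 for Fzd4. There most wild-type values were below the median of the genes of other organs. Dim ligands such as Wnt1 and Wnt8a are also among the 40, where the interval bounds a signal and not a transcript.

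Among the ligands 0 of 19 were past the threshold by limma, and at an unadjusted p below 0.05 Wnt3 was higher and Wnt2 lower (10.5% of the 19, against 21.6% of all genes). Wnt3, a canonical ligand, read 4.78, 5.30, 5.97 and 5.53 log2 in GR-null arrays, against 3.98, 4.0, 4.81 and 4.26 in wild-type arrays. The groups met at GR-null 5 and wild-type 28, and all wild-type values lay below the median of the genes of other organs. The difference in log2 signal was 1.13 ± 0.26 (SE, 95% interval 0.54 to 1.73, adjusted p = 0.0546), which is no measured fold of transcript since the wild-type signal was not above that of genes of other organs. It was read at a probe set whose name ends in _x_at and which can take up related transcripts. It passed the threshold without GR-null 5 (1.34, adjusted p = 0.0456) and without GR-null 17 (1.17, 0.0467). The other 6 fits without an array gave 0.94 to 1.32 (adjusted p of 0.0633 to 0.141), and the muscle, gap and melanocyte covariates gave 1.02 to 1.46 (0.31 to 0.575).

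Wnt2, a ligand known from lung mesenchyme, had the largest difference of any member and was chosen here after its values were seen. It read 7.60, 6.09, 5.44 and 6.20 log2 in GR-null arrays, against 7.84, 8.09, 7.19 and 8.28 in wild-type arrays. GR-null 5 was inside the wild-type range and the other GR-null arrays were below it. The difference was -1.52 ± 0.42 (SE, 2.86-fold, 95% interval -2.46 to -0.57, adjusted p = 0.0834), and without GR-null 5 it was -1.94 (adjusted p = 0.0318). The other 7 fits without an array gave -1.73 to -1.22 (adjusted p of 0.0972 to 0.201), and the muscle, gap and melanocyte covariates gave -2.37 to -1.14 (0.412 to 0.657). The other 17 ligands had differences from -0.21 for Wnt9a to 0.43 for Wnt7b, with adjusted p of 0.270 or above. The narrowest interval among the 6 brightest was that of Wnt11, -0.13 to 0.30, and the widest that of Wnt7b, -0.07 to 0.93.

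Of the receptors, 0 of 10 Frizzled genes and 0 of 2 co-receptors were past the threshold by limma, while 5 Frizzled genes and 0 co-receptors were higher at an unadjusted p below 0.05, with 0 lower, beside 10.5% of all genes higher and 11.1% lower. Fzd6, a Frizzled that orients hair follicles in mouse skin, read 9.77, 9.70, 9.75 and 9.88 log2 in GR-null arrays, against 9.60, 9.51, 9.58 and 9.52 in wild-type arrays. The groups did not overlap there although the difference was only 0.22 ± 0.07 (SE, 1.17-fold, adjusted p = 0.116). Dimmer probe sets of Fzd6 had differences of 1.03 ± 0.37 (adjusted p = 0.148 over probe sets) and 0.02, with overlapping groups. Fzd5 read 7.04, 8.17, 7.13 and 6.88 in GR-null arrays, against 6.75, 6.62, 6.44 and 6.59 in wild-type arrays. Every GR-null array was higher, and GR-null 17 lay more than 1 log2 unit above the other GR-null arrays. Its difference was 0.70 ± 0.25 (adjusted p = 0.152). Without GR-null 17 it was 0.41 and past the threshold (adjusted p = 0.0421), while leaving out any other array gave 0.65 to 0.85 (adjusted p of 0.155 to 0.281). It turned to -0.20 with the melanocyte covariate (adjusted p = 0.76) and was 1.62 with the muscle covariate (0.15) and 1.28 with the gap (0.577). Fzd3, Fzd10 and Fzd8 had differences of 0.26, 0.31 and 0.23 with adjusted p of 0.137, 0.152 and 0.210.

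The receptors with the brightest probe sets were Fzd2, Fzd1 and Fzd4. Fzd2 read 10.18, 10.33, 9.99 and 9.80 log2 in GR-null arrays, against 10.09, 10.27, 10.03 and 10.31 in wild-type arrays. Fzd1 read 9.84, 10.47, 10.09 and 9.86 in GR-null arrays, against 9.75, 9.81, 9.78 and 9.89 in wild-type arrays. Fzd4, also a receptor for the vascular ligand norrin, read 9.79, 10.58, 9.66 and 9.16 in GR-null arrays, against 10.14, 9.73, 9.84 and 9.85 in wild-type arrays. For all 3 the groups overlapped, and GR-null 17 was the highest array. GR-null 17 was highest for 5 of the 10 Frizzled genes and for 11 of the 43 members, and GR-null 26 was highest for 10 members. GR-null 17 also had the lowest array quality weight, 0.47. Its mean of 4 adipocyte markers was 10.97, against 8.24 to 9.53 in the other GR-null and 8.17 to 10.79 in the wild-type arrays. In GR-null 17 the mean of 10 hair follicle and dermal papilla markers was 8.47, against 6.75 to 7.32 in the other GR-null and 6.90 to 7.03 in the wild-type arrays. The part of any of these in the receptor values was not tested.

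Lrp5 read 6.29, 6.16, 6.32 and 6.37 log2 in GR-null arrays, against 6.03, 5.98, 6.12 and 6.43 in wild-type arrays, at 0.14 ± 0.11 (SE, adjusted p = 0.500). Lrp6 read 9.59, 9.93, 9.79 and 9.38 in GR-null arrays, against 9.55, 9.53, 9.75 and 10.03 in wild-type arrays, at -0.04 ± 0.15 (adjusted p = 0.913). Both co-receptors overlapped between genotypes. Fzd10os read 7.92, 7.74, 7.97 and 7.87 in GR-null arrays, against 8.03, 8.03, 8.25 and 8.31 in wild-type arrays. It was the 1 member with every GR-null array lower, at -0.28 ± 0.09 (adjusted p = 0.134), while its neighbour Fzd10 had a positive difference. A dimmer probe set of Fzd10os had a difference of 0.08.

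Dkk1 (chromosome 19) read 7.74, 8.18, 7.80 and 7.96 log2 in GR-null 5, 17, 25 and 26, against 7.31, 7.47, 7.28 and 7.34 in wild-type 4, 6, 28 and 29. Every GR-null array was above every wild-type array, and GR-null 17 was the highest. Its rise was 0.57 ± 0.11 log2 (SE, n = 4 per group, 1.49-fold, 95% interval 0.33 to 0.81, adjusted p = 0.0306 by limma). A dimmer probe set of Dkk1 read 5.45, 6.10, 5.25 and 5.38 in GR-null arrays, against 5.14, 5.38, 5.45 and 5.13 in wild-type arrays. There the groups overlapped, at 0.27 ± 0.18 (adjusted p = 0.429 over probe sets). Leaving out GR-null 25, GR-null 26, wild-type 4, wild-type 28 or wild-type 29 ended the call (adjusted p of 0.0654 to 0.088, at 0.55 to 0.61 log2), whereas it held when GR-null 5, GR-null 17 or wild-type 6 was left out. With the muscle marker mean as a covariate its difference was 0.92 (adjusted p = 0.116), with the melanocyte marker mean 0.29 (0.373), and with the 3′ to 5′ gap 0.61 (0.574). With the probe sets of each gene averaged Dkk1 was not past the threshold either (0.42, adjusted p = 0.0947). In these 3 fits, whose covariates each separated the genotypes, 3, 331 and 0 of all genes were past the threshold. With the level of the gene Eif2s3y as a covariate 619 genes were past it, Dkk1 among them (0.55, adjusted p = 0.0211).

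Of the remaining inhibitors 0 were past the threshold by limma in either direction. At an unadjusted p below 0.05 there were 1 other higher and 1 lower, beside 10.5% of all genes higher and 11.1% lower. Sfrp2, a Wnt-binding protein of the dermis, had the brightest inhibitor probe set and read 11.19, 11.10, 11.36 and 11.11 log2 in GR-null arrays, against 10.87, 10.89, 10.33 and 10.80 in wild-type arrays. The groups did not overlap, and wild-type 28 was the lowest. The difference was 0.47 ± 0.13 (SE, 1.38-fold, 95% interval 0.17 to 0.77, adjusted p = 0.0874). With the 3′ to 5′ gap as a covariate it was 0.05 (adjusted p = 0.974).

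Wif1, which traps Wnts outside the cell, read 10.29, 10.54, 10.27 and 10.16 log2 in GR-null arrays, against 10.47, 10.36, 10.23 and 9.97 in wild-type arrays, with overlapping groups and a 95% interval of -0.23 to 0.34. Kremen1, the Dkk co-receptor, read 8.95, 9.17, 9.0 and 9.04 in GR-null arrays, against 9.30, 9.11, 9.17 and 9.27 in wild-type arrays, which overlapped through GR-null 17. Dkk2, chosen here after its values were seen, read 7.65, 7.67, 7.14 and 7.16 in GR-null arrays, against 7.67, 7.83, 7.62 and 7.99 in wild-type arrays, with a difference of -0.37 ± 0.15 (adjusted p = 0.195). Its groups overlapped through GR-null 5 and 17. Dkk3 and Dkk4 had differences of 0.02 and 0.08 with intervals of -0.40 to 0.43 and -0.59 to 0.74. A second probe set of Dkk3 had a difference of 0.71 ± 0.18 with overlapping groups (adjusted p = 0.061 over probe sets). Frzb, Sfrp5, Sfrp4 and Sfrp1 had differences of 0.30, 0.25, 0.08 and -0.11, with adjusted p from 0.270 to 0.794.

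**Figure D2:**
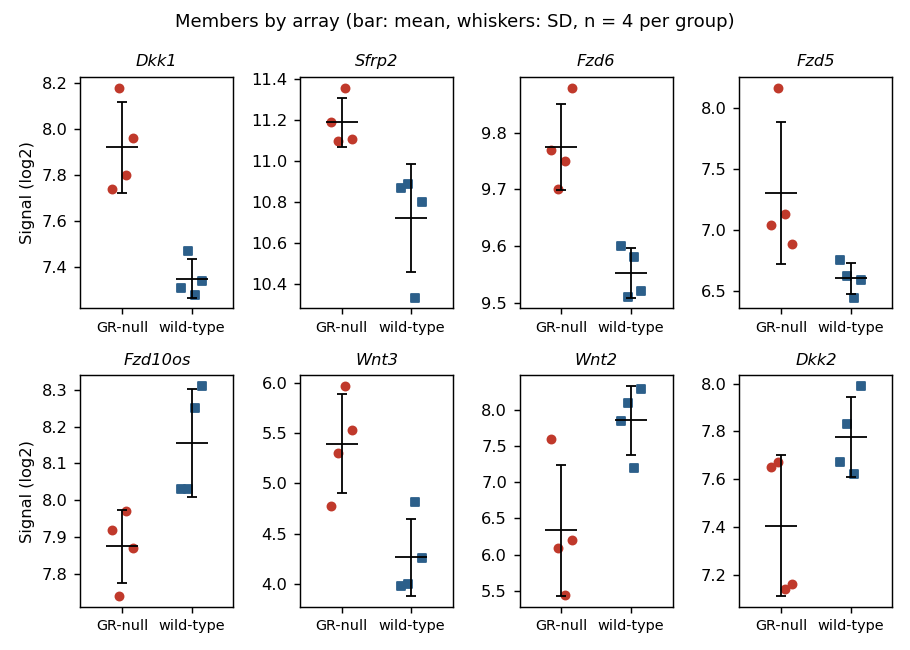
Log2 signal by array for 8 members (GR-null left, wild-type right in each panel, points are arrays, bars the mean and whiskers the SD, n = 4 per group, axes scaled per panel and not starting at 0). The groups do not overlap for Dkk1, Sfrp2, Fzd6, Fzd5 and Fzd10os, and they overlap for Wnt3, Wnt2 and Dkk2.

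**Figure D3:**
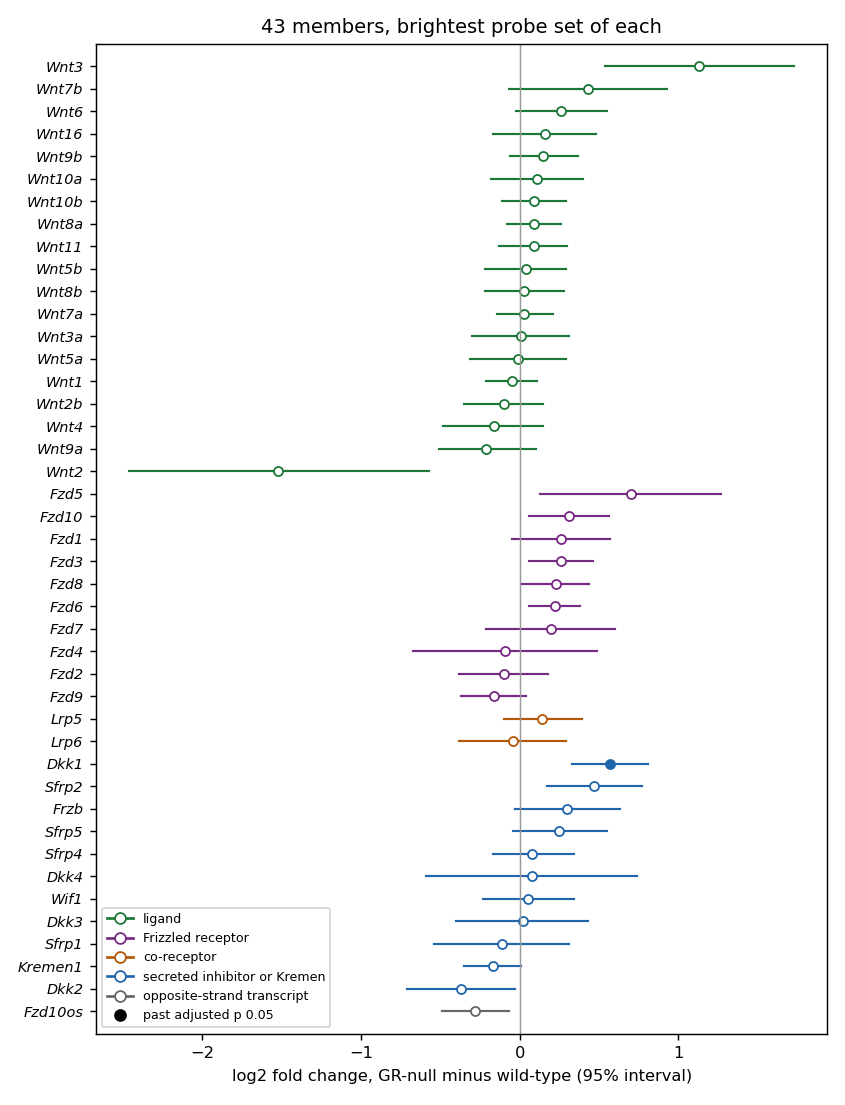
Log2 fold change (GR-null minus wild-type) with its 95% interval for the 43 members, grouped by role, each at its brightest probe set. The filled point is Dkk1, past an adjusted p of 0.05, and the open points are the other 42, among which Wnt3, Wnt2 and Fzd5 have intervals that reach beyond 1 log2 unit.

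Probe sets of 1 gene did not always give the same answer. The 26 members with several probe sets had 41 beside the brightest. Of these, 4 were past the threshold and higher in GR-null skin (9.76%) and 0 were lower, while 3.79% of the corresponding probe sets of all genes were called higher and 1.30% lower. The genotypes did not overlap at 6 of the 41 upward and at 1 downward, against 9.20% and 4.97% over all genes. The median difference of the 41 was 0.11 log2, and 0.02 over the 16752 such probe sets of all genes.

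The 4 belonged to Fzd4, Lrp6, Fzd1 and Fzd3, and the probe sets described here were chosen after their values were seen. At its dim probe set Fzd4 read 5.32, 5.93, 5.86 and 5.34 log2 in GR-null arrays, against 5.15, 4.46, 3.72 and 3.82 in wild-type arrays, a rise of 1.33 ± 0.31 (SE, adjusted p = 0.0491 by limma over all probe sets). All its wild-type values but that of wild-type 4 lay below 4.84, the median of the genes of other organs. The 1.33 is thus a difference in signal and no measured fold of transcript. The brightest probe set of Fzd4 had a difference of -0.09 and the next brightest 0.11. The second probe set of Lrp6 read 7.97, 8.09, 7.98 and 7.99 in GR-null arrays, against 7.72, 7.23, 7.54 and 7.59 in wild-type arrays, a rise of 0.48 ± 0.11 (adjusted p = 0.0443). That of Fzd1 rose by 0.76 ± 0.17 (adjusted p = 0.0465) and 1 of Fzd3 rose by 0.46 ± 0.10 (adjusted p = 0.0466). For these 4 probe sets the genotypes did not overlap, and for all 4 genes the call depended on which probe set was read.

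Other probe sets differed in the same way without passing the threshold. The brightest probe set of Fzd2 had a difference of -0.10, whereas another of nearly equal signal read 10.48, 10.05, 10.45 and 10.65 log2 in GR-null arrays, against 9.58, 10.21, 9.06 and 9.55 in wild-type arrays. Its difference was 0.81 ± 0.22 (adjusted p = 0.0764). The second probe set of Wnt7b had a difference of 1.11 ± 0.34 (adjusted p = 0.102 by limma), beside 0.43 at the brightest. Kremen1 had -0.17 at the brightest and -0.32 ± 0.10 at the next (adjusted p = 0.0959), where every GR-null array was lower. Its dimmest probe set went the other way at 0.99 ± 0.28 (0.0827), with overlapping groups. The sources used here do not give where a probe set lies along its transcript, and the part of the 3′ to 5′ gap of the controls in these differences was not tested.

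**Figure D4:**
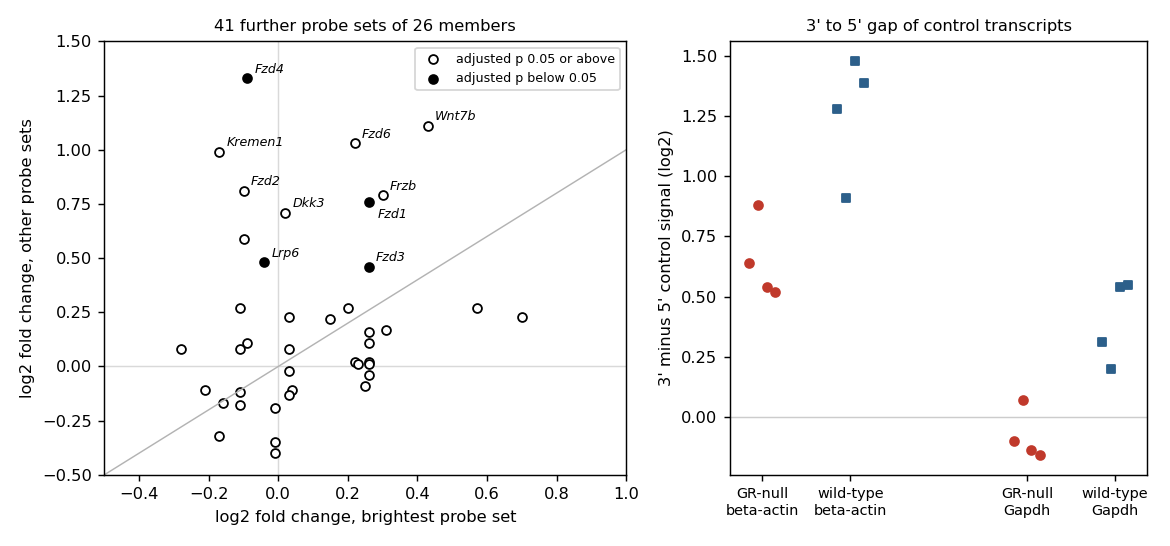
Left, log2 fold change (GR-null minus wild-type) of the 41 further probe sets of 26 members (vertical) against that of the brightest probe set of the same member (horizontal), with filled points past an adjusted p of 0.05 over all probe sets and the line of equality. Right, the 3′ minus 5′ log2 signal of the beta-actin and Gapdh controls by array, where all GR-null arrays (circles) lie below all wild-type arrays (squares).

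The rest of the Wnt pathway was read in 73 genes from 7 lists, of which 2 were called higher and 2 lower in GR-null skin. That is 5.48% of the 73, against 2.96% of all genes. The groups did not overlap for 8 of the 73 (11%), against 13.0% of all genes, and the median log2 fold change was 0.00. Wls, the carrier that brings Wnts to the cell surface, read 10.80, 10.65, 11.01 and 10.72 log2 in GR-null arrays, against 10.20, 10.39, 10.01 and 9.97 in wild-type arrays. All GR-null arrays were higher, a rise of 0.65 ± 0.12 (SE, n = 4 per group, 1.57-fold, adjusted p = 0.0278 by limma). Of its other 3 probe sets, 1 was past the threshold at 0.83 ± 0.14 (adjusted p = 0.0235 over probe sets), and the others had differences of 0.43 and -0.05. Its call held only when wild-type 6 or GR-null 17 was the array left out (adjusted p of 0.0149 to 0.0869 over the 8 fits). With the muscle, melanocyte and 3′ to 5′ gap covariates its difference was 0.57, 0.77 and 0.19 (adjusted p of 0.514, 0.111 and 0.83). The second gene of the secretion list, the acyltransferase Porcn, was not past the threshold at -0.26 ± 0.12.

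Axin2, a feedback inhibitor and widely used readout of beta-catenin signalling, read 9.79, 9.75, 9.88 and 9.97 log2 in GR-null arrays, against 9.41, 9.17, 9.50 and 9.47 in wild-type arrays. The groups did not overlap, and the rise was 1.37-fold (0.46 ± 0.09, SE, adjusted p = 0.0405). It was the 1 call among 17 canonical target genes, with 0 called lower. At an unadjusted p below 0.05, 4 of the 17 were higher and 0 lower, and their median log2 fold change was 0.09. Of all genes 1.40% were called higher and 10.5% were higher at an unadjusted p below 0.05. Its call held only without GR-null 17, and the other 7 fits without an array gave adjusted p of 0.0621 to 0.13. A second probe set of Axin2 had a difference of 0.56 (adjusted p = 0.124 over probe sets). With the muscle, melanocyte and 3′ to 5′ gap covariates the difference of Axin2 was 0.36, 0.58 and 0.63 and not past the threshold (adjusted p of 0.608, 0.122 and 0.522), and after a further quantile normalization it was 0.43 (0.0509).

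Inside the cell, Dvl1, the scaffold that relays the receptor signal, read 10.39, 10.67, 10.29 and 10.16 log2 in GR-null arrays, against 10.82, 10.98, 10.92 and 10.95 in wild-type arrays. Every GR-null array was lower, and Dvl1 fell by 0.54 ± 0.11 (SE, adjusted p = 0.0402), while its second probe set had a difference of -0.02. It was the 1 call among 17 genes of intracellular transduction (5.88%, against 2.96% of all genes), and leaving out any array but GR-null 17 ended it (adjusted p of 0.0648 to 0.131). Bcl9l, a coactivator of beta-catenin, read 7.84, 7.93, 7.98 and 7.83 in GR-null arrays, against 8.11, 8.54, 8.54 and 8.58 in wild-type arrays. It fell by 0.55 ± 0.11 (adjusted p = 0.0394), the 1 call among 11 Tcf/Lef factors and cofactors (9.09%, against 2.96% of all genes). Its other 2 probe sets had differences of 0.07 and -0.13. Its call held without wild-type 4 or GR-null 17 and ended without any other array (adjusted p of 0.0744 to 0.11). With the muscle and gap covariates the call of Dvl1 ended at -0.25 and -0.31 (adjusted p of 0.734 and 0.768) and that of Bcl9l at -0.39 and -0.46 (0.639 and 0.682). With the melanocyte covariate Dvl1 kept its call at -0.90 (0.0328), and Bcl9l did not at -0.80 (0.0774). With averaged probe sets neither was past the threshold, at -0.28 for Dvl1 (0.0548) and -0.21 for Bcl9l (0.0995). Ctnnbip1, an inhibitor that keeps beta-catenin from Tcf/Lef factors, was chosen after its values were seen and read 9.50, 9.10, 9.74 and 8.61 in GR-null arrays, against 9.91, 10.90, 10.41 and 10.31 in wild-type arrays. The groups did not overlap, at -1.14 ± 0.27 (adjusted p = 0.0563), and its second probe set was past the threshold at -1.02 ± 0.15 (adjusted p = 0.0182 over probe sets).

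By limma 0 genes were past the threshold among 9 R-spondins, Lgr receptors and their E3 ligases, 11 other extracellular antagonists and 12 non-canonical receptors and planar polarity genes. Of all genes 2.96% were past it. At an unadjusted p below 0.05 these lists held 1 higher, 2 higher, and 2 higher and 2 lower genes (11.1%, 18.2% and 33.3%), against 21.6% of all genes. The smallest p in the first list belonged to the stem cell marker Lgr5, at 0.47 ± 0.20 log2 (SE, adjusted p = 0.223), with GR-null arrays at 8.24 to 9.21 and wild-type arrays at 7.94 to 8.30, followed by Rspo1, a Wnt-enhancing ligand, at 0.19 ± 0.14 (0.489). Without GR-null 17 the difference of Lgr5 was 0.25 (adjusted p = 0.181), and with the melanocyte covariate it turned to -0.21 (0.717). Sostdc1, an antagonist of Wnt and Bmp signals, had a difference of 0.46 ± 0.18 and Tpbg, a cell surface antagonist, 0.76 ± 0.29, both with adjusted p of 0.174. The planar polarity genes Vangl2 and Celsr3 did not overlap between genotypes, with 0.46 ± 0.11 (adjusted p = 0.0565) and -0.40 ± 0.10 (0.0704). Vangl2 passed the threshold without wild-type 6 (0.55, adjusted p = 0.0379), and the other 7 fits without an array gave 0.42 to 0.53 (0.0585 to 0.149).

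**Figure D5:**
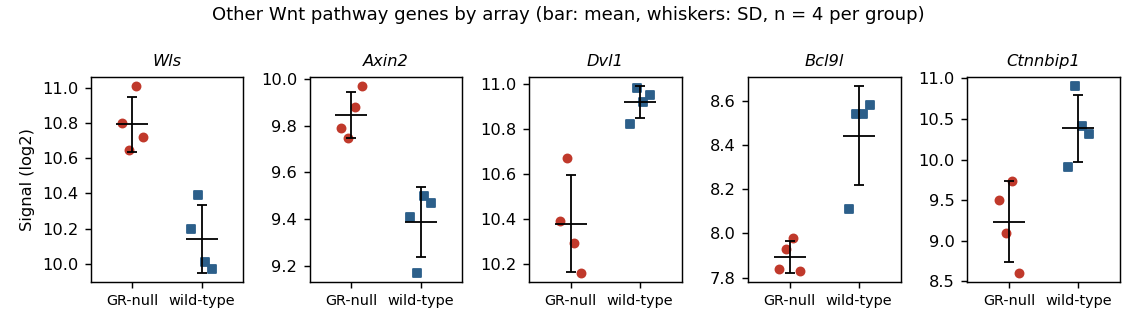
Log2 signal by array for 5 further genes of the Wnt pathway (GR-null left, wild-type right, points are arrays, bars the mean and whiskers the SD, n = 4 per group, axes scaled per panel and not starting at 0). All GR-null arrays lie above all wild-type arrays for Wls and Axin2, and below them for Dvl1, Bcl9l and Ctnnbip1.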

How the data were processed

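RNA from dorsal skin was hybridised to Affymetrix mouse GeneChip arrays, 1 per sample, whose probe sets each sum several short probes. The deposited values are log2 expression per probe set made with RMA, which subtracts background, equalises the arrays and summarises probes, per the submitters' processing notes; the sources used here do not state its version. Such summaries shrink differences of dim probe sets. Of 45101 probe sets, 64 controls were left out of the tests.

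Groups came from the titles. A linear model with genotype was fitted to each of 45037 probe sets with limma 3.58.1 (lmFit, eBayes, two-sided) in R 4.3.3 and tested on simulated data. Gene results were read at the brightest probe set annotated to that gene alone, with Benjamini-Hochberg adjustment over 18193 genes and a threshold of 0.05. All 43 members matched the RefSeq table of GRCm38.p6. The number of arrays limits precision.

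Members and gene lists were chosen with earlier results of these data known. Values in every array are given for members past the threshold or with groups that do not overlap, the 6 ligands, 3 receptors and 3 inhibitors of highest mean, and the smallest p in each role. In pathway lists the genes past the threshold, or else the 2 with the smallest p, are named. Alternatives covered normalization, dim probe sets, the variance prior, array weights, each array left out, other probe sets and covariates. The 3′ to 5′ gap and melanocyte covariates were added after seeing the data.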

Additional observations from a re-analysis of the deposited data

Results flagged for a closer look

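Among named genes, 4 values stood far from the other 3 arrays of their genotype, out of 56 groups examined with Dixon's test, which flags about 5% of groups by chance. In GR-null 17 Lgr5 read 9.21 log2, with 8.24 to 8.38 in the 3 remaining arrays of that genotype. Sfrp2 read 10.33 in wild-type 28, against 10.80 to 10.89 in the other wild-type arrays. Bcl9l read 8.11 in wild-type 4, with 8.54 to 8.58 in the other wild-type arrays. Vangl2 read 8.71 in wild-type 6, with 8.34 to 8.39 in the rest of the wild-type arrays.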

How the results depend on the processing

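No paired analysis was possible because the label numbers of the groups have none in common. The count of members called higher was 1, and it was 4 with array quality weights, 2 with probe sets averaged per gene (Fzd1 at 0.51 and Wnt3 at 1.13, but not Dkk1), 3 at a threshold of 0.1, and 0 with the muscle, 3′ to 5′ gap or melanocyte covariate. Wnt3 has 1 probe set, so averaging left its values unchanged and its call there rests on no further probe set. With the Eif2s3y level as a covariate the count stayed at 1. Without 1 array it was 0 to 3. The count called lower was 0, with 1 at a threshold of 0.1 and 0 to 1 without 1 array. Groups that did not overlap numbered 4 upward (4 to 8 without 1 array) and 1 downward (1 to 2 without 1 array, 3 after a further quantile normalization and 0 with averaged probe sets). Leaving out an array cannot make separate groups overlap. The counts without 1 array could therefore only stay or rise, and they are no check of stability. Over the pathway lists 2 genes were called higher, against 1 after quantile normalization, 5 with averaged probe sets (Wls and Axin2 among them), 0 with the muscle, gap or melanocyte covariate, and 0 to 4 without 1 array. Called lower were 2, against 4 with array weights, 1 with averaged probe sets (Ctnnbip1, and neither Dvl1 nor Bcl9l), 1 with the melanocyte covariate (Dvl1), 0 with the muscle or gap covariate, and 0 to 2 without 1 array. With the Eif2s3y covariate 3 pathway genes were called higher and 3 lower. Over all genes 539 were called, against 1944 with array weights, 884 with averaged probe sets, and 79 (without GR-null 25) to 1640 (without GR-null 17) without 1 array. The cause of these changes was not tested. No call turned round in the 572 refits of single named genes, 49 of which ended a call and 16 of which made one. Dkk1 kept a positive difference in all 18, from 0.29 to 0.92 log2, and its call in 9. The direction changed in 31 refits, all of them of genes that were not called, namely Wnt4, Wnt5a, Wnt7b, Wnt11, Fzd1, Fzd2, Fzd4, Fzd5, Lrp6, Wif1, Kremen1, Lgr5 and Rspo1. All 6 brightest ligands stayed among the first 6 with averaged probe sets and in GR-null arrays alone, and 5 did in wild-type arrays alone, where Wnt2 was sixth. Wnt3 was not read without probe sets ending in _x_at or _s_at or above the median level. Signals near those of genes of other organs limit what can be said of the 5 dimmest ligands.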
